A study of Drosophila melanogaster with 16 samples.

Results

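Gastrulating Drosophila melanogaster embryos homozygous for the Jasper allele Su140 were compared with wm4h controls at stages 7 to 8 (St7-8). The comparison rests on 4 of the 16 libraries of the series, 2 per genotype, and covers every gene in the count table. Of 17753 genes, 12398 had enough counts to be tested and 5355 did not. The St7-8 groups used here are Su140 (genotype wm4h;JasperSu140/JasperSu140), Su113 (wm4h;JasperSu113/JasperSu113), Su(var)3-9 (homozygous for Su(var)3-906 on the wm4h background) and the control wm4h (wm4h;+/+). Su140 and wm4h embryos of nuclear cycle 14 (NC14, stage 5) served as the earlier stage. All of these embryos carry the wm4h chromosome, so no group here has w at its ordinary position. Each library came from a pool of 50 embryos picked by hand. The labels' protocols give egg laying for 1 h and ageing for 2 h at 25 °C, from stocks kept at 20 °C. The same collection text, which names NC14, stands in the labels of both stages. The labels do not describe the lesion in either Jasper allele.

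JASPer is a PWWP-domain protein that binds nucleosomes with methylated lysine 36 of histone H3 and works with JIL-1, the kinase that phosphorylates histone H3 in open chromatin. The wm4h chromosome is an X inversion that brings white (w), an ABC transporter gene needed for eye pigment, next to pericentromeric heterochromatin, where its transcription varies from cell to cell. Mutations that relieve this silencing are called suppressors of variegation, and Su(var)3-9 encodes a histone H3 lysine 9 methyltransferase that is the classical example. At stages 7 to 8 the germ band extends and the embryo's own genome supplies most new transcripts.

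Total counts at St7-8 were 73392895 and 65918287 in Su140, and 70635572 and 82871567 in wm4h. A count of 3 corresponded to 0.0386 and 0.0387 CPM (counts scaled to the size of the library) in Su140, and to 0.041 and 0.0398 CPM in wm4h. The 10 most abundant genes took between 4.98 and 5.37% of each library. The replicates of Su140 stood far apart: the SD of their log2 CPM difference over genes was 1.55, against 1.02 between the wm4h replicates. Replicate 2 of wm4h at St7-8 resembled NC14 embryos, with a Pearson correlation across genes of 0.981 and 0.983 to the wm4h NC14 libraries and of 0.974 to its own replicate. Between wm4h at St7-8 and wm4h at NC14 edgeR called 0 genes, with 1395 at an unadjusted p under 0.05.

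Markers of muscle and of older embryos differed between libraries of 1 group. Myosin heavy chain (Mhc), a marker of formed muscle, had 0.335 and 412 CPM in Su140, against 9.62 and 0.398 CPM in wm4h. The muscle actin Act57B had 32.1 and 392 CPM in Su140, against 8.8 and 0.0928 CPM in wm4h. The sum over the 21 tested markers was 844 and 2854 CPM in Su140, against 795 and 869 CPM in wm4h. This sum follows its most abundant members and does not stand for each marker. Replicate 2 exceeded replicate 1 for 20 of the 21 markers in Su140, and replicate 1 exceeded replicate 2 for 19 of the 21 in wm4h. Arms 2L, 2R, 3L, 3R and X held 2205, 2512, 2444, 3007 and 1998 tested genes. On these arms the same order was found for 884, 1013, 1000, 1205 and 655 genes in Su140. In wm4h it was found for 1126, 1251, 1159, 1477 and 985 genes. Of the defining markers, wupA (troponin I) had no count in Su140 replicate 1 and 30.9 CPM in Su140 replicate 2. Both Su140 libraries lay above both wm4h libraries for 7 of the 21, beside 18.2% of all genes tested, and 1 passed the test (4.76%, beside 1.15% of all genes tested). The sum over 10 markers of ovary, eggshell and adult tissue was 2.55 and 3.38 CPM in Su140, against 1.89 and 1.09 CPM in wm4h.

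**Figure D1:**
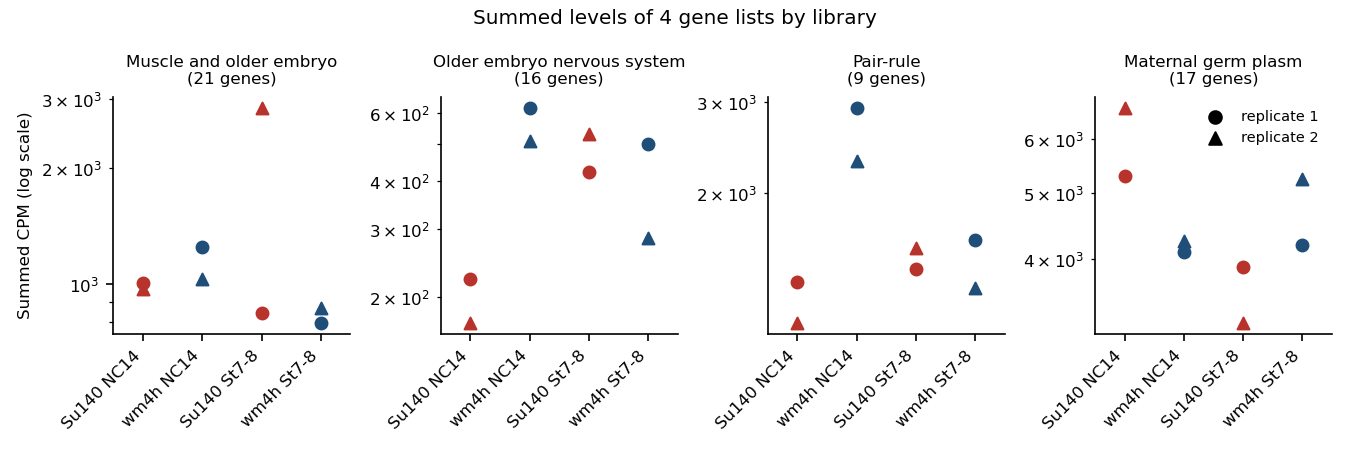
Summed CPM (log axis) of 4 gene lists in the Su140 and wm4h libraries at NC14 and St7-8, with 1 point per library (circle, replicate 1; triangle, replicate 2). Su140 replicate 2 at St7-8 stands at 2854 CPM for muscle and older-embryo markers, with the other 7 libraries between 795 and 1247 CPM. The sum follows its most abundant members: in wm4h at St7-8, replicate 1 exceeded replicate 2 in 19 of 21 markers but had the lower sum.

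Su140 embryos had 143 genes past an adjusted p of 0.05 at St7-8, which is 1.15% of the genes tested. Of these, 47 were higher (0.379%) and 96 lower (0.774%) in Su140. The change was at least 2-fold for 129 of them, and the median log2 fold change over all genes tested was -0.05. Every one of the 143 had both Su140 libraries outside both wm4h libraries, as did 42.7% of all genes tested. The higher genes had a median log2 fold change of 2.93 and the lower genes one of -1.64. At an unadjusted p under 0.05 there were 2273 genes.

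Many of these calls were lost with a single library left out. The share lost was larger among the higher genes, except without Su140 replicate 1. Each such fit left 1 library in a group and reran the filter on low counts. A lost call can therefore reflect the smaller group as well as the library left out. Without Su140 replicate 1, 45 of the 47 higher and 55 of the 96 lower calls remained; without Su140 replicate 2, 4 and 23 remained. Without wm4h replicate 1 the numbers were 7 and 71, and without wm4h replicate 2 they were 0 and 20. The total number of calls, new ones included, was 416 and 31 with the first and the second Su140 library left out, and 148 and 20 with the first and the second wm4h library left out. With the mean log2 CPM of the 21 older-embryo markers as a covariate, 19 higher and 49 lower calls remained. The test used 1 estimate of spread per gene over all 8 groups of the series. Fitted to the St7-8 libraries alone, edgeR called 0 genes (1355 at an unadjusted p under 0.05), while DESeq2 on all libraries called 1002 and limma voom 313. The share of higher genes was 32.9% with TMM scaling, 45.2% with DESeq2 size factors and 43.7% with upper-quartile scaling.

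**Figure D2:**
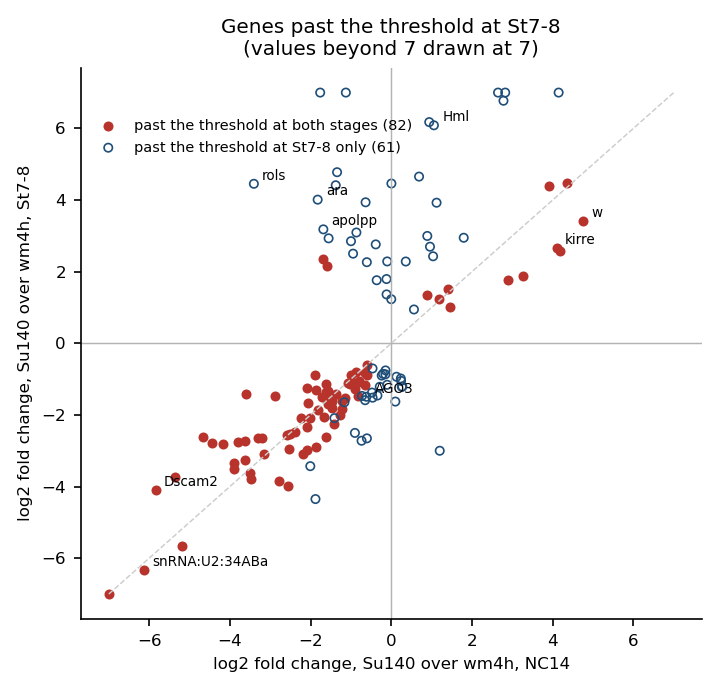
Log2 fold change of Su140 over wm4h at St7-8 (vertical) against that at NC14 (horizontal) for the 143 genes past the threshold at St7-8, with values beyond 7 drawn at 7. Filled points also passed at NC14; 2 of them, at upper left, changed in opposite directions at the 2 stages. Of the 96 lower genes 70 lie within 1 log2 unit of the dashed line of equal change, and 41 of the 47 higher genes lie above it.

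The gene that reports silencing in this stock, w, was higher in Su140. It had 3.73 and 6.75 CPM in Su140, 3.79 and 1.61 CPM in Su113, 0.283 and 0.249 CPM in Su(var)3-9, and 0.423 and 0.557 CPM in wm4h. Both Su140 libraries lay above both wm4h and both Su(var)3-9 libraries, while Su113 spanned a range that reached the lower Su140 value. The log2 fold change of Su140 over wm4h was 3.41 (SE 0.511, adjusted p = 0.00998), and that over Su(var)3-9 was 4.30 (adjusted p = 0.000841). Against Su113 the difference was 0.95 with an adjusted p of 0.303, which does not show that the alleles act alike. Leaving out 1 library at a time gave log2 fold changes over wm4h of 2.92 to 3.94 and adjusted p of 0.00465 to 0.106. The call held in 1 of these 4 fits, that without Su140 replicate 1.

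In the reference order w lies within the span of kirre on the opposite strand. In the Ensembl 115 annotation of BDGP6.54, w occupies X:2790599-2796466 and kirre X:2740384-3134532. Whether the counting used strand is not given in the sources used here, so reads of w and kirre could not be separated with certainty. The gene kirre encodes an immunoglobulin-type adhesion protein of muscle founder cells. It had 14.3 and 18.9 CPM in Su140, against 2.83 and 2.43 CPM in wm4h, and the groups did not overlap. Its log2 fold change was 2.66 (SE 0.545, adjusted p = 0.0419). It ranged from 2.44 to 3.01 with 1 library left out (adjusted p 0.0262 to 0.356, held in 1 of 4 fits) and lost its call with the replicate number as a block (adjusted p = 0.072). The other 67 tested genes within 500 kb of w had a median log2 fold change of -0.08, beside -0.05 for all genes tested. Of these 67, edgeR called 0, with a lowest adjusted p of 0.125. Beside 1.15% called over all genes tested, a count of 0 does not set them apart. The window follows the reference order, which the inversion changes.

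Jasper mRNA in Su140 did not differ from wm4h past the threshold. It had 146 and 128 CPM in Su140, against 151 and 168 CPM in wm4h (log2 fold change -0.22, SE 0.175, adjusted p = 0.505). Both Su140 libraries lay below both wm4h libraries, as for 24.5% of all genes tested. The labels do not say how Su140 changes the gene, so this level is no check of the genotype. JIL-1 had 304 and 239 CPM in Su140, against 245 and 406 CPM in wm4h (adjusted p = 0.554), and the groups overlapped. Su(var)3-9 had 114 and 104 CPM in Su140, against 136 and 93.2 CPM in wm4h (adjusted p = 0.889). It shares an exon with eIF2gamma on the same strand, so reads of the 2 genes could not be separated with certainty. The lists of JASPer partners and interband chromatin, of heterochromatin proteins and of Polycomb and Trithorax proteins each had 19 tested members and none past the threshold. With 1.15% of all genes called, lists of this size are too small for a count of 0 to stand apart. Their median log2 fold changes were -0.26, -0.31 and -0.08, beside -0.05 for all genes tested. Negative values were found in 17, 17 and 10 of the 19 members, beside 53.4% of all genes tested. Such one-sidedness was not particular to these lists: values were negative in 17 of 18 cell cycle and 79 of 84 ribosomal protein genes.

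The lower genes held the calls that lasted. Of the 96, 13 remained past the threshold whichever of the 4 St7-8 libraries was left out, and 12 of the 13 were also called lower at NC14, where other libraries were compared. The test at NC14 used the same estimate of spread per gene, so its calls are not independent of those at St7-8. The 13 genes encode products of unrelated kinds: receptors, adhesion proteins, an immune recognition protein, enzymes, an Argonaute protein and a spliceosomal RNA. By map position 8 of the 13 lie on 3L, which carries 2444 of the 12398 genes tested, 2 on 3R, 2 on 2L and 1 on 2R. This spread was not tested, because the 13 were picked by their values.

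The gene mthl8, of the methuselah family of G protein-coupled receptors, lies at 3L:22428-26308. It had 0 counts in both Su140 libraries, against 16.5 and 15.9 CPM in wm4h, so it was at least 420-fold lower (adjusted p = 0.00189). At NC14 it also had 0 counts in both Su140 libraries, against 13.2 and 11.9 CPM in wm4h. Su113 embryos had 8.57 and 4.88 CPM at St7-8, and the difference between the alleles passed the test (adjusted p = 0.0025).

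A gene of the U2 spliceosomal RNA, snRNA:U2:34ABa, had 0.219 and 0.258 CPM in Su140, against 15.1 and 23.4 CPM in wm4h. Its log2 fold change was -6.32 (SE 0.389, adjusted p = 2.46e-05), the smallest adjusted p of the comparison. Su113 had 0.189 and 0.132 CPM. U2 genes exist in near-identical copies, and how the counting assigned shared reads is not given in the sources used here, so this value is uncertain.

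Dscam2, a homophilic immunoglobulin adhesion protein used in neuronal self-recognition and tiling, had 2.32 and 4.96 CPM in Su140, against 72.1 and 53.3 CPM in wm4h. The log2 fold change was -4.11 (SE 0.395, adjusted p = 0.000735), and both Su140 libraries lay far below both wm4h libraries. Su113 had 3.39 and 4.13 CPM, and the alleles differed by -0.04 on the log2 scale (adjusted p = 0.975). At NC14 Dscam2 had 1.34 and 1.53 CPM in Su140, against 90.5 and 73.9 CPM in wm4h.

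GNBP2, of the Gram-negative binding protein family of immune recognition, had 0.502 and 0.736 CPM in Su140, against 5.45 and 8.72 CPM in wm4h (log2 fold change -3.51, SE 0.403, adjusted p = 0.00272). The antiviral gene pastrel (pst) had 4.1 and 4.7 CPM in Su140, against 23.6 and 44.2 CPM in wm4h (-2.95, SE 0.383, adjusted p = 0.00498). The cytochrome P450 gene Cyp6d4 had 2.68 and 2.76 CPM in Su140, against 17.6 and 29.2 CPM in wm4h (-3.10, SE 0.405, adjusted p = 0.00498). In all of these the Su140 replicates agreed closely and lay well below wm4h. DIP-lambda, which encodes an immunoglobulin protein that pairs with Dpr adhesion proteins, had 3.02 and 3.05 CPM in Su140, against 11.9 and 13.5 CPM in wm4h (-2.07, SE 0.243, adjusted p = 0.00311). Cyp6d4 and DIP-lambda lost their calls when both second St7-8 libraries were left out (adjusted p up to 0.0707).

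Genes of the set without a familiar name showed the same separation. CG11241 had 5.51 and 8.92 CPM in Su140, against 83.3 and 94.6 CPM in wm4h (log2 fold change -3.62, SE 0.313, adjusted p = 0.000539). CG6567 had 7.32 and 6.07 CPM in Su140, against 38.2 and 51.3 CPM in wm4h (-2.74, adjusted p = 0.000735). CG10089 had 0.54 and 0.672 CPM in Su140, against 8.28 and 8.67 CPM in wm4h (-3.80, adjusted p = 0.00152). CG11594 and CG31674 completed the set with log2 fold changes of -2.98 (adjusted p = 0.000714) and -2.57 (adjusted p = 0.00344). CG11241, CG6567, CG11594 and CG31674 overlap exons on the opposite strand, and whether the counting used strand is not given in the sources used here.

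AGO3, the Argonaute protein that partners Aubergine in the piRNA ping-pong cycle of the germline, was the member of the 13 that did not pass at NC14. It had 95.4 and 114 CPM in Su140, against 243 and 346 CPM in wm4h at St7-8 (log2 fold change -1.49, SE 0.181, adjusted p = 0.00353). At NC14 it had 257 and 228 CPM in Su140, against 322 and 421 CPM in wm4h (-0.62, adjusted p = 0.0503). The difference between the stages was -0.88 with an adjusted p of 0.0848. Maelstrom (mael), another piRNA pathway gene, was the second of 2 calls among 26 tested members of that list (7.69%, beside 1.15% of all genes tested). It had 102 and 84.5 CPM in Su140, against 178 and 238 CPM in wm4h (-1.16, SE 0.19, adjusted p = 0.0163). The call on mael was lost without either second replicate: its log2 fold change was -0.94 to -1.36 with 1 library left out (adjusted p 0.0139 to 0.15). It overlaps CG14450 and CG14451 on the opposite strand. The list's median was -0.45, and 24 of its 26 members had negative values, beside a median of -0.05 and 53.4% negative values over all genes tested. Other lists were as one-sided, with negative values in 17 of 18 cell cycle and 79 of 84 ribosomal protein genes.

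**Figure D3:**
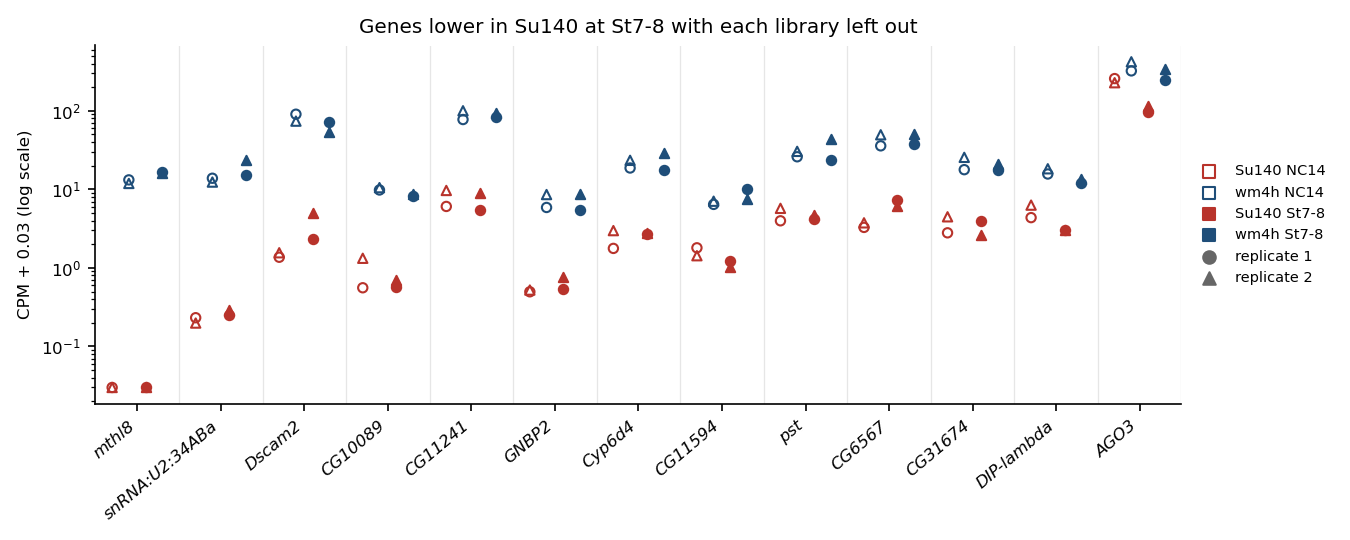
CPM + 0.03 (log axis) per library of the 13 genes called lower in Su140 at St7-8 with each library left out, at NC14 (open symbols) and St7-8 (filled), with Su140 in red and wm4h in blue and 1 point per library. For mthl8 all 4 Su140 libraries sit at 0 counts; for AGO3 the separation is wider at St7-8 than at NC14, a difference that did not pass its test.

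Among the other lower genes, 7 with known roles in signalling are described here, and they were not tested as a group. Tsp26A, a tetraspanin of the kind that aids Notch signalling, had 17.2 and 13.3 CPM in Su140, against 38.9 and 45.4 CPM in wm4h (log2 fold change -1.47, SE 0.19, adjusted p = 0.00498). The TGF-beta family ligand gene maverick (mav) had 143 and 81.2 CPM in Su140, against 243 and 311 CPM in wm4h (-1.31, SE 0.22, adjusted p = 0.0175). The glutamate receptor gene mGluR had 4.43 and 4.39 CPM in Su140, against 10.9 and 12 CPM in wm4h (-1.37, SE 0.229, adjusted p = 0.0169). Both mav and mGluR lie on chromosome 4, where 3 of 103 tested genes were called (2.91%, beside 1.15% of all genes tested), 1 higher and 2 lower.

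The endoplasmic reticulum calcium sensor gene Stim had 126 and 117 CPM in Su140, against 217 and 298 CPM in wm4h (-1.08, SE 0.167, adjusted p = 0.0113). The EGF receptor inhibitor gene kek1 had 3.09 and 8.68 CPM in Su140, against 28.4 and 39.2 CPM in wm4h (-2.52, SE 0.374, adjusted p = 0.00998). The Alk ligand gene jeb, which acts in visceral muscle, had 9.15 and 6.31 CPM in Su140, against 71.7 and 23.7 CPM in wm4h (-2.63, SE 0.536, adjusted p = 0.0419), so its wm4h values spread widely. The receptor gene mthl3 had 4.5 and 3.07 CPM in Su140, against 12 and 10.7 CPM in wm4h (-1.58, adjusted p = 0.0381). Of these 7 genes, kek1 alone remained called without Su140 replicate 2 (adjusted p 0.000784 for kek1 to 0.251 over the 7). Without wm4h replicate 2, Tsp26A and jeb remained (adjusted p 0.0373 to 0.178). Stim, kek1 and jeb were picked for their roles after their values were seen.

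Of the heat shock list, 1 of 18 tested genes (5.56%) was called, and of the cytochrome P450 and glutathione S-transferase list 3 of 108 (2.78%), beside 1.15% of all genes tested. The small heat shock protein gene Hsp23 had 10.8 and 7.92 CPM in Su140, against 47.7 and 56.6 CPM in wm4h (log2 fold change -2.48, SE 0.341, adjusted p = 0.0071). The lower genes MtnA and Ugt50B3 are in neither list. The metallothionein gene MtnA had 1.71 and 5.67 CPM in Su140, against 23.2 and 27.8 CPM in wm4h (-2.79, SE 0.547, adjusted p = 0.037). The glucuronosyltransferase-type gene Ugt50B3 had 5.76 and 8.64 CPM in Su140, against 41.3 and 59.2 CPM in wm4h (-2.80, SE 0.395, adjusted p = 0.00821). The 3 calls of the detoxification list were all lower: Cyp6d4 above, Cyp6a13 and GstE1. Cyp6a13 had 4.17 and 0.956 CPM in Su140, against 14.2 and 17.6 CPM in wm4h (-2.63, adjusted p = 0.0483). GstE1, which overlaps GstE10 on the opposite strand, had 15.4 and 19.9 CPM in Su140, against 38.8 and 39 CPM in wm4h (-1.14, adjusted p = 0.0221). Without wm4h replicate 2 none of Hsp23, MtnA, Ugt50B3, Cyp6a13 and GstE1 passed (adjusted p 0.054 to 0.292), and MtnA, Cyp6a13 and GstE1 lost their calls under both other scalings (adjusted p up to 0.0599).

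The lowest log2 fold changes among genes of at least 1 CPM, after those above, fell in genes of low abundance. TpnC4, a troponin C of muscle, had 0.18 and 0.284 CPM in Su140, against 3.47 and 2.72 CPM in wm4h (-3.73, SE 0.594, adjusted p = 0.0137). The sodium channel gene ppk13, of the DEG/ENaC family, had 0.296 and 0.0775 CPM in Su140, against 3.89 and 2.08 CPM in wm4h (-3.99, SE 0.784, adjusted p = 0.037). CG15484, CG33509, CG32814, CG11052, CG17470 and CG30010 had log2 fold changes between -5.66 and -3.08 and adjusted p between 0.00498 and 0.0419. Their highest Su140 value was 1.03 CPM, in CG30010, and their lowest wm4h value was 1.51 CPM, in CG33509. Without Su140 replicate 2 none of these 8 genes remained called (log2 fold change -5.66 to -2.57, adjusted p 0.0507 to 0.206).

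Small nuclear RNA genes held 3 calls among 30 tested (10.0%), beside 1.15% of all genes tested, with 3 lower and 0 higher: the U2 gene above, snRNA:U1:82Eb (-1.81, adjusted p = 0.0396) and snRNA:U1:95Ca (-1.65, adjusted p = 0.0439), of which the last 2 are again multicopy. Of 977 tested long noncoding RNA genes, 3 (0.307%) were lower: asRNA:CR45171 (-2.24, adjusted p = 0.00998), lncRNA:CR43989 (-2.90, adjusted p = 0.0102) and lncRNA:CR44781. The last had at most 2 counts per Su140 library, and its wm4h to Su140 ratio was 21.7 with a 95% counting interval of 8.15 to 81.3. Without wm4h replicate 2 none of the 5 RNAs other than the U2 gene passed (adjusted p 0.0841 to 0.357). Ribosomal protein genes were called at about the share of all genes. Among 84 of them 1 (1.19%) was lower, RpL34a, with 102 and 82.9 CPM in Su140, against 141 and 171 CPM in wm4h (-0.76, adjusted p = 0.0419). Among 71 mitochondrial ribosomal protein genes 1 (1.41%) was lower, mRpL2 (-0.90, adjusted p = 0.0328), and among 41 proteasome genes 1 (2.44%), Rpt3R (-1.66, adjusted p = 0.037). Without either second replicate none of RpL34a, mRpL2 and Rpt3R passed (adjusted p 0.15 to 0.329), and RpL34a and mRpL2 lost their calls under both other scalings.

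Other lower genes had clear roles and did not pass at NC14; they were picked after their values were seen. The germline gap junction gene zpg had 9.75 and 5.55 CPM in Su140, against 39 and 57.4 CPM in wm4h (-2.65, SE 0.556, adjusted p = 0.0453). The Toll pathway adaptor gene tube (tub) had 20.6 and 19.1 CPM in Su140, against 54.8 and 67.7 CPM in wm4h (-1.63, SE 0.3, adjusted p = 0.0284). The fatty acid oxidation gene Mcad had 156 and 110 CPM in Su140, against 277 and 340 CPM in wm4h (-1.21, SE 0.188, adjusted p = 0.0114). For all of them NC14 values overlapped or lay closer together: tub had 47.8 and 70.8 CPM in Su140, against 49.8 and 60.7 CPM in wm4h at NC14. None of the 3 stage differences passed (adjusted p of 0.12 for zpg, 0.0691 for tub and 0.0834 for Mcad). None of the 3 remained called without Su140 replicate 2 or without wm4h replicate 2 (adjusted p 0.106 to 0.357 for a group that also holds mael and the purine synthesis gene Pfas).

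Of the higher genes, 4 are known from blood cells: PPO1, PPO2, Hml and Pvr. The first 3 are in no haemocyte list used here and were named by the size of their change. The prophenoloxidase gene PPO1, made by crystal cells for melanization, had 2.1 and 12.2 CPM in Su140 and 0 counts in both wm4h libraries, so it was at least 176-fold higher (adjusted p = 0.00482). Its relative PPO2 had 3.51 and 13.4 CPM in Su140, against 0.164 and 0.504 CPM in wm4h (log2 fold change 4.65, SE 0.936, adjusted p = 0.0396). In both genes Su140 replicate 2 was several times above replicate 1, while all Su140 values exceeded all wm4h values. Hemolectin (Hml), a clotting factor of plasmatocytes, had 83.7 and 69.9 CPM in Su140, against 0.478 and 1.78 CPM in wm4h (6.09, adjusted p = 0.0163). The PDGF/VEGF-type receptor gene Pvr, needed for haemocyte migration and survival, had 30.3 and 33.6 CPM in Su140, against 15.4 and 11.8 CPM in wm4h (1.23, SE 0.243, adjusted p = 0.0375). In such bulk samples more cells of a type and more RNA per cell cannot be told apart.

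Other genes of this lineage did not pass the test. Among 14 tested genes of the endoderm and haemocyte list, Pvr was the 1 call (7.14%, beside 1.15% of all genes tested). The GATA factor gene srp had 207 and 154 CPM in Su140, against 226 and 117 CPM in wm4h (adjusted p = 0.931), and the peroxidasin gene Pxn had 12.4 and 18 CPM in Su140, against 20.6 and 7.05 CPM in wm4h (adjusted p = 0.938). Su113 embryos had 0.578 and 0.227 CPM of Hml, and the direct difference between the alleles was 7.51 on the log2 scale (adjusted p = 0.00557); PPO1 and PPO2 also differed between the alleles (adjusted p of 0.0287 and 0.0327). Without wm4h replicate 2 none of PPO1, PPO2, Hml and Pvr passed (adjusted p 0.054 to 0.331). Without wm4h replicate 1 PPO1 alone passed (adjusted p 0.0261 to 0.0877), and without Su140 replicate 2 PPO1 and Hml did (0.0134 to 0.199).

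The lipid carrier genes apolpp and Apoltp were also higher. The lipophorin precursor gene apolpp, which supplies the main lipoprotein of the haemolymph, had 348 and 797 CPM in Su140, 748 and 708 CPM in Su113, 226 and 70.8 CPM in Su(var)3-9, and 82.6 and 43.5 CPM in wm4h. The log2 fold change of Su140 over wm4h was 3.18 (SE 0.521, adjusted p = 0.0163). The lipid transfer particle gene Apoltp had 74.8 and 101 CPM in Su140, against 4.78 and 3.54 CPM in wm4h (4.40, SE 0.845, adjusted p = 0.0328). Both were high in all Su140 and Su113 libraries and low in wm4h. Neither call remained without Su140 replicate 2 (log2 fold change 2.46 to 4.16, adjusted p 0.0858 to 0.108) or without wm4h replicate 2 (2.79 to 4.20, adjusted p 0.2 to 0.33). apolpp overlaps Zyx on the opposite strand.

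Fas3, cora and Chs2, genes of epithelia, were higher as well; they were not tested as a group. The septate junction and adhesion gene Fas3 had 61.4 and 121 CPM in Su140, against 5.82 and 2.48 CPM in wm4h (log2 fold change 4.46, SE 0.743, adjusted p = 0.0169). The band 4.1 family gene cora, also of septate junctions, had 69.9 and 138 CPM in Su140, against 26.4 and 14.4 CPM in wm4h (2.35, SE 0.418, adjusted p = 0.0237). The epithelial chitin synthase gene Chs2 had 4.86 and 4.98 CPM in Su140, against 0.3 and 0.345 CPM in wm4h (3.93, SE 0.812, adjusted p = 0.0435). In each case the groups stood well apart.

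Higher transcription factor genes included ara, vvl, disco-r and Sox21b. The lists of head gap, pair-rule, segment polarity and Hox genes held 0 calls at St7-8. They are too small for that count to stand apart from the 1.15% called over all genes. The Iroquois gene araucan (ara) had 4.63 and 6.97 CPM in Su140, against 0.505 and 0.212 CPM in wm4h (4.01, SE 0.731, adjusted p = 0.0259). The POU factor gene vvl, active in trachea and nervous system, had 45 and 59.6 CPM in Su140, against 5.31 and 6.95 CPM in wm4h (3.09, SE 0.631, adjusted p = 0.0419). The zinc finger gene disco-r had 11.2 and 21 CPM in Su140, against 1.49 and 0.61 CPM in wm4h (3.94, SE 0.826, adjusted p = 0.0453). Sox21b was the 1 call among 19 tested neural genes (5.26%, beside 1.15% of all genes tested). It had 2.73 and 3.62 CPM in Su140, against 0.382 and 0.437 CPM in wm4h (2.95, SE 0.555, adjusted p = 0.0305). Without Su140 replicate 2 none of Fas3, cora, Chs2, ara, vvl, disco-r and Sox21b passed (adjusted p 0.0752 to 0.189), and none did without wm4h replicate 2 (adjusted p 0.212 to 0.385).

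The muscle genes sls and rols were higher in Su140, and both stood higher in its replicate 2 than in its replicate 1, as did 20 of the 21 older-embryo markers. The titin-like gene sallimus (sls) had 71.2 and 381 CPM in Su140, against 12.4 and 4.11 CPM in wm4h (log2 fold change 4.78, SE 1.02, adjusted p = 0.048). The myoblast fusion gene rols had 11.4 and 18 CPM in Su140, against 0.915 and 0.424 CPM in wm4h (4.45, SE 0.938, adjusted p = 0.0455). Over the 21 muscle and older-embryo markers, which include sls, the median log2 fold change of Su113 over the same wm4h libraries was 4.54. That of Su140 over Su113 was -0.14. That of Su140 over wm4h was 4.41 with 1 call, beside -0.05 for all genes tested. Both calls were lost under either other scaling (adjusted p 0.0504 to 0.0546), and with any of wm4h replicate 1, wm4h replicate 2 and Su140 replicate 2 left out (adjusted p 0.0667 to 0.391).

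The same unevenness ran through the higher genes as a set. Of all genes tested, Su140 replicate 2 exceeded replicate 1 in 884 of 2205 on 2L and 1013 of 2512 on 2R. On 3L it did so in 1000 of 2444, on 3R in 1205 of 3007 and on X in 655 of 1998. The share over all genes was not computed for gaps of more than 2-fold. Among the 96 lower genes Su140 replicate 2 exceeded replicate 1 in 35, by more than 2-fold in 5. Among the 47 higher genes it did so in 36, by more than 2-fold in 12. The largest such gap was in nur, a gene of unstated function here, with 6.51 and 94.8 CPM in Su140 and 0 counts in both wm4h libraries (at least 1255-fold higher, adjusted p = 0.0391). CG13159 followed with 2.92 and 40.5 CPM in Su140, against 0.0546 and 0 CPM in wm4h (adjusted p = 0.0373), and CG9628 had 5.51 and 17.1 CPM in Su140, against 0.82 and 0.239 CPM in wm4h (adjusted p = 0.0396). Su113 had 34.6 and 30.2 CPM of nur. None of nur, CG13159 and CG9628 passed without Su140 replicate 2 (adjusted p 0.0591 to 0.185), without wm4h replicate 1 (0.0586 to 0.0682) or without wm4h replicate 2 (0.262 to 0.336). How much of the change in any higher gene moves with the older-embryo markers was not tested beyond the covariate fit given above.

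The genes CG14760, CG11635 and CG14020 had no counts in wm4h, and CG3880 had at most 2 per wm4h library. CG14760 was at least 8.14-fold, CG11635 at least 6.07-fold and CG14020 at least 4.47-fold higher in Su140, each against 3 counts per wm4h library. Their Su140 levels ran from 0.129 to 0.386 CPM. CG3880 had 0.733 and 1.46 CPM in Su140, against 0.0273 and 0 CPM in wm4h, a ratio of 81.4 with a 95% counting interval of 22.2 to 678. None of the 4 could be tested when at least 1 CPM in 2 libraries was required. Without wm4h replicate 2 none of them passed, with a range of adjusted p over the 4 single-library omissions from 0.0265 to 0.187 for CG11635.

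**Figure D4:**
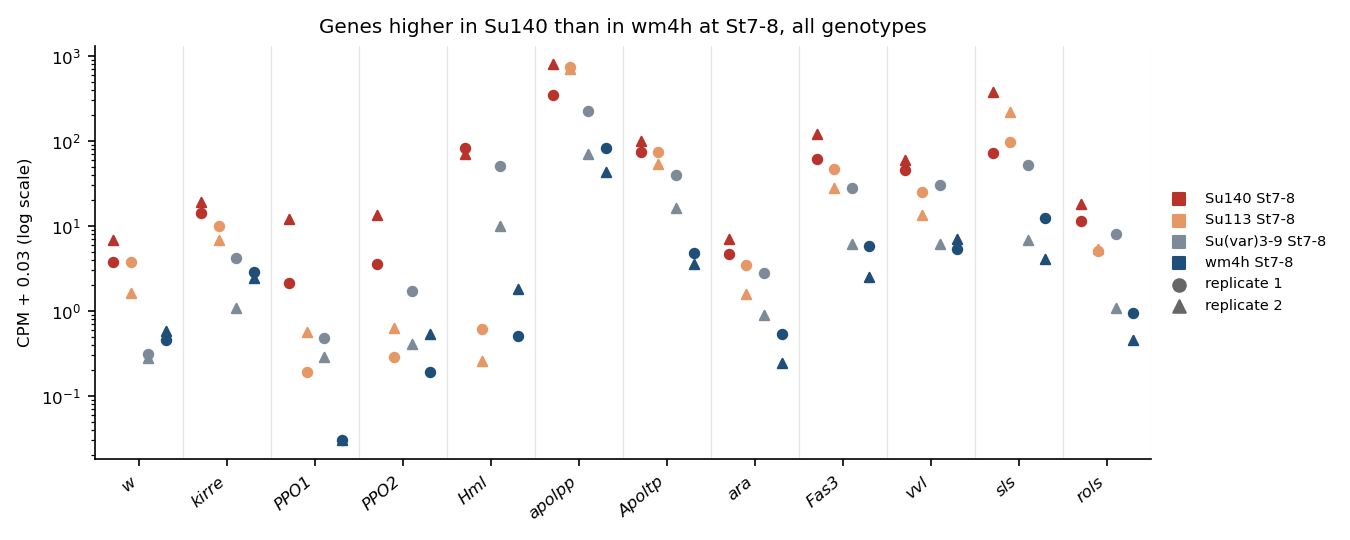
CPM + 0.03 (log axis) at St7-8 of 12 genes called higher in Su140 than in wm4h, in Su140, Su113, Su(var)3-9 and wm4h, with 1 point per library. Hml stands at 83.7 and 69.9 CPM in Su140, against 0.578 and 0.227 CPM in Su113; apolpp stands at 348 and 797 CPM in Su140 and at 748 and 708 CPM in Su113; w is lowest in Su(var)3-9.

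The lower genes were largely those already lower before gastrulation. At NC14, where the Su140 and wm4h libraries are different ones, 1185 genes (9.56%) passed the threshold, 375 higher (3.02%) and 810 lower (6.53%). That count was 120 and 148 with the first and the second Su140 NC14 library left out, and 247 and 714 with the first and the second wm4h NC14 library left out. Of the 96 genes lower at St7-8, 69 (71.9%) were also called lower at NC14, and 89 had a negative value there. Of the 47 higher genes, 11 (23.4%) were also called higher, 26 had a positive value and 2 were called lower. The 80 genes called in the same direction at both stages make up 55.9% of the St7-8 calls and 6.75% of the NC14 calls. Over all genes tested, 43.8% had the same sign at both stages. Both stages were tested with the same estimate of spread per gene, so their calls are not independent.

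The 11 genes higher at both stages included w, kirre and Apoltp. Among the others, the uncharacterized CG10962 had 12.8 and 8.59 CPM in Su140, against 1.53 and 2.07 CPM in wm4h at St7-8 (log2 fold change 2.57, adjusted p = 0.0169). At NC14 it had 21.3 and 24.6 CPM in Su140, against 1.3 and 1.23 CPM in wm4h. The capping protein beta subunit gene cpb, which caps actin filament ends, had 197 and 174 CPM in Su140, against 86.5 and 95.9 CPM in wm4h (1.02, SE 0.156, adjusted p = 0.011). CG9380 had 51.4 and 64.8 CPM in Su140, against 16.6 and 17.4 CPM in wm4h (1.77, adjusted p = 0.0188). The acetylcholine receptor subunit gene nAChRalpha3, which overlaps CG1636 on the opposite strand, had 114 and 70.2 CPM in Su140, against 40.8 and 23.1 CPM in wm4h (1.53, adjusted p = 0.0459). CG13375, CG7214, CG14715 and CG9674 had log2 fold changes of 1.88, 4.48, 1.22 and 1.34. These 8 genes were chosen after their values were seen. Without wm4h replicate 2 none of the 8 kept its call, and cpb kept it without each of the other 3 libraries (adjusted p 0.0158 to 0.0656 over the 4 fits).

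A direct test of the stage difference found 34 genes (0.274%) whose Su140 effect differed between St7-8 and NC14, 30 of them (0.242%) with a more positive and 4 (0.0323%) with a more negative value at St7-8. Among the 143 genes this held for 6 higher genes and 1 lower gene. apolpp was higher in Su140 at St7-8 and had 11.7 and 9.43 CPM in Su140, against 35.5 and 32.3 CPM in wm4h at NC14, a stage difference of 4.86 (SE 0.718, adjusted p = 0.0363). cora had 3.29 and 5.5 CPM in Su140, against 13.2 and 15.5 CPM in wm4h at NC14, and was called lower there and higher at St7-8, a difference of 4.05 (adjusted p = 0.0363). FBgn0263039, an identifier with no match in the annotation, was the other gene called in opposite directions, with a stage difference of 3.75 (adjusted p = 0.0467). ara differed by 5.83 (adjusted p = 0.0478). The lower gene was Aldh7A1, an aldehyde dehydrogenase gene, with a log2 fold change of -1.40 at St7-8 and -3.60 at NC14. The count of 34 fell to 0 without wm4h St7-8 replicate 2 and to 2 without Su140 St7-8 replicate 2; it was 1957 without wm4h St7-8 replicate 1 and 440 without Su140 St7-8 replicate 1. Among the NC14 libraries it was 0 with any of Su140 replicate 1, Su140 replicate 2 and wm4h replicate 1 left out, and 6 with wm4h replicate 2 left out.

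Some segmentation and homeotic genes were called lower in Su140 at NC14, and none of them was called at St7-8. Over all genes tested, 6.53% were called lower at NC14 and 1.15% were called at St7-8. These lists are too small for 0 calls at St7-8 to stand apart from that share. The direct test of the stage difference passed for 1 of 8 Hox, 1 of 12 segment polarity and 1 of 12 head gap genes. It passed for 0 of 9 pair-rule and 0 of 7 gap genes, and for 0.274% of all genes tested. Of 8 Hox genes, 7 were lower at NC14 and 0 were called at St7-8, where their median log2 fold change was 0.49. The Hox gene Antp had 145 and 132 CPM in Su140, against 212 and 93 CPM in wm4h at St7-8 (adjusted p = 0.875), and 20.2 and 17 CPM in Su140, against 148 and 91.3 CPM in wm4h at NC14 (adjusted p = 0.00635). Abd-B passed the stage difference (2.95, adjusted p = 0.0478). Of 12 segment polarity genes 7 were lower at NC14 and 0 were called at St7-8; hedgehog (hh), a secreted signal, had 32.7 and 32.7 CPM in Su140, against 36.9 and 16 CPM in wm4h at St7-8 (adjusted p = 0.719). Of 9 pair-rule genes 4, of 12 head gap genes 3 and of 7 gap genes 1 were lower at NC14, and 0 of them were called at St7-8. At St7-8 replicate 1 of wm4h exceeded replicate 2 in 1126 of 2205 genes tested on 2L and in 1477 of 3007 on 3R. It did so in 7 of 8 Hox and 11 of 12 segment polarity genes. For Antp and hh this put 1 wm4h library above and 1 below both Su140 libraries.

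**Figure D5:**
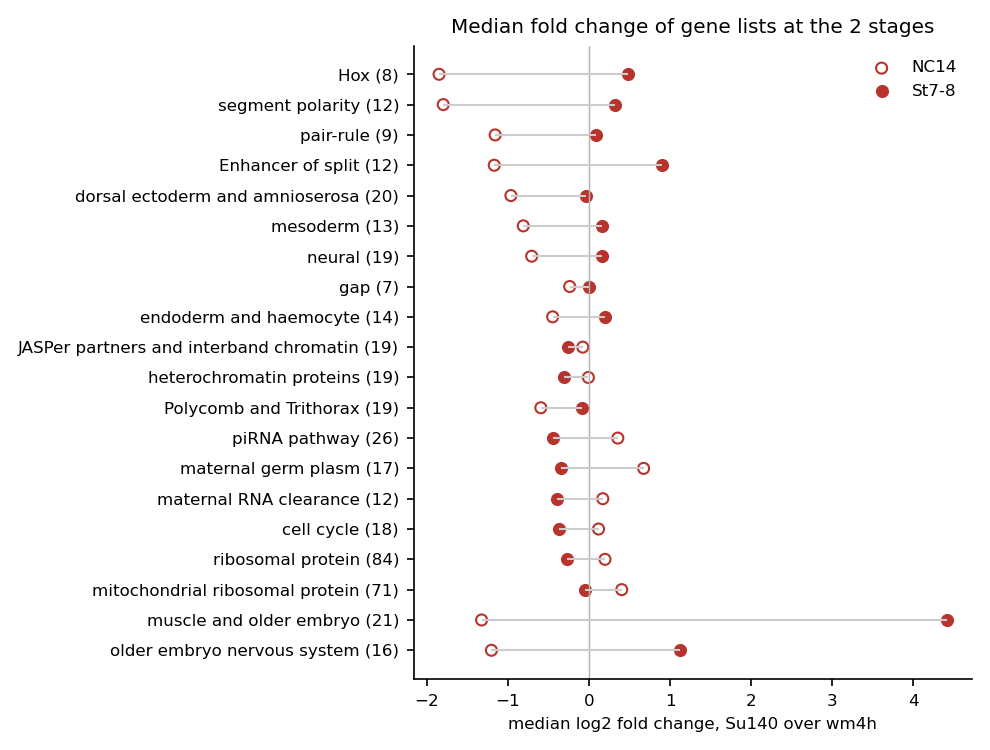
Median log2 fold change of Su140 over wm4h for 20 gene lists at NC14 (open) and St7-8 (filled), with the number of tested genes in brackets. Hox and segment polarity lists lie at -1.85 and -1.80 at NC14 and at 0.49 and 0.32 at St7-8; muscle and older-embryo markers reach 4.41 at St7-8.

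Maternal and cell cycle lists are too small for a count of 0 to stand apart from the 1.15% called over all genes. The list of maternal germ plasm genes (17 tested), that of maternal RNA clearance (12 tested) and that of the cell cycle (18 tested) had medians of -0.35, -0.40 and -0.37, with 0 called each. Summed germ plasm transcripts came to 3901 and 3226 CPM in Su140, against 4190 and 5249 CPM in wm4h. Under the other scalings the median of all genes tested moved from -0.05 to 0.09, a shift of 0.14 and 0.15, and the germ plasm median stayed 0.29 to 0.30 below it. The same lists had 0, 0 and 0 calls under those scalings.

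Su140 was set directly against the other mutant genotypes at St7-8. Against Su113, the other Jasper allele, 297 genes (2.4%) passed, 68 higher (0.548%) and 229 lower (1.85%) in Su140. The named extremes were Hml, CG10962 (4.90, adjusted p = 0.00117), CG31601 (7.93, adjusted p = 0.00702), CG32318 (7.38, adjusted p = 0.0186) and the peptide receptor gene CCHa1-R (6.57, adjusted p = 0.0256) on the higher side. On the lower side were mthl8, Cyp6a19 (-5.35, adjusted p = 0.00458), CG32814 (-5.10, adjusted p = 0.0052), CG31075 (-5.02, adjusted p = 0.00743) and CG4842 (-4.61, adjusted p = 0.0052). Of the genes above, AGO3 had 327 and 320 CPM in Su113 and was 1.63 lower on the log2 scale in Su140 (adjusted p = 0.00219). Leaving out replicate 1 gave 110 calls when it was the Su140 library and 1439 when it was the Su113 library; leaving out replicate 2 gave 106 and 65.

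Against Su(var)3-9, 2925 genes (23.6%) passed, 1568 higher (12.6%) and 1357 lower (10.9%) in Su140. kirre was among the higher ones, with 14.3 and 18.9 CPM in Su140, against 4.21 and 1.04 CPM in Su(var)3-9 (log2 difference 2.66, adjusted p = 0.0072). mael, lower in Su140 than in wm4h, was higher in Su140 than in Su(var)3-9, which had 26.3 and 24.7 CPM (1.87, adjusted p = 0.000492). GNBP2 had 1.47 and 0.947 CPM in Su(var)3-9, and Cyp6d4 2.32 and 1.92 CPM; neither differed from Su140 past the threshold (adjusted p of 0.0818 and 0.507). Su113 and Su(var)3-9 were each compared with the same wm4h libraries as Su140, so their calls against wm4h are not independent of those above. There were 1011 calls with the second Su140 library left out, and 1326 and 862 with the first and the second Su(var)3-9 library left out.

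Calls were spread over all major arms. On 2L 10 were higher (0.454%) and 13 lower (0.59%) of 2205 genes tested, and on 2R 11 (0.438%) and 21 (0.836%) of 2512. On 3L the numbers were 11 (0.45%) and 22 (0.9%) of 2444. On 3R, which carries Jasper, 3 were higher (0.0998%) and 32 lower (1.06%) of 3007. On X 10 were higher (0.501%) and 6 lower (0.3%) of 1998. On chromosome 4 there were 1 (0.971%) and 2 (1.94%) of 103, and on Y none of 27. Shares over all genes tested were 0.379% higher and 0.774% lower, and differences between arms were not tested. Within 500 kb of Jasper 0 of 146 tested genes were called (lowest adjusted p 0.0608), beside 1.15% of all genes tested.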

How the data were processed

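RNA-seq was measured in pools of 50 embryos with a stranded total RNA kit, per the labels' protocols. The authors deposited 1 table of whole-number counts per gene, without normalization. The build dm6 and DESeq2 are named in the submitters' processing notes; the sources used here do not give the aligner, counter, strand setting or annotation. Symbols and positions came from Ensembl 115 (BDGP6.54), which matched 17626 identifiers, with 127 unmatched; 1532 genes had no counts.

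Everything else was computed here with edgeR 4.0.16, DESeq2 1.42.0 and limma 3.58.1 in R 4.3.3, and with matplotlib 3.10.9, scipy 1.17.1, pandas 2.3.3 and numpy 2.4.6 in python 3.11.15. Genes passing filterByExpr over the 8 groups were scaled by TMM and fitted in 1 quasi-likelihood model (glmQLFit, glmQLFTest) to all 16 libraries, which left 8 residual degrees of freedom and gave a common biological coefficient of variation of 0.40. Tests of contrasts were two-sided, and p-values were adjusted by Benjamini-Hochberg over all genes tested. Adjusted p and log2 fold changes are from this model, n = 2 libraries per group. The standard error (SE) was derived from its test, as the absolute log2 fold change divided by the square root of the F statistic. The p-values measure the spread between libraries, which may be technical. Lower bounds were set against 3 counts per library and, like the exact counting intervals, cover counting error only. The scripts were tested on simulated data. Sequences are not used here.

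The members and lists were chosen with earlier results of these data known. The rule for named genes took Jasper, Su(var)3-9, JIL-1, w and kirre, the 15 highest and 15 lowest log2 fold changes past the threshold (mean of at least 1 CPM and no overlap of groups), the 15 smallest adjusted p, genes with 0 counts in a genotype, up to 3 called genes per list, and 5 each way for the stage difference and for Su140 against Su113. Alternatives covered scaling, low-count filters, tools, the libraries fitted, a replicate block, single libraries left out and a marker covariate. That covariate was the mean log2 CPM of 21 markers in each library.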

Additional observations from a re-analysis of the deposited data

Results flagged for a closer look

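For 34 genes the effect of Su140 relative to wm4h differed between St7-8 and NC14 by a direct test of that difference in edgeR, each with 2 libraries per group. The genes named by rule are given with the log2 fold change at St7-8 minus that at NC14, its SE and its adjusted p. On the positive side these were CG11635 at 8.97 (SE 1.51, adjusted p = 0.0478; a fitted value from wm4h libraries with 0 counts at St7-8), ara at 5.83 (1.02, adjusted p = 0.0478), Cyp6a8 at 5.80 (1.04, adjusted p = 0.0483), apolpp at 4.86 (0.718, adjusted p = 0.0363), the Iroquois gene caup at 4.55 (0.753, adjusted p = 0.0467) and FBgn0040813 at 4.53 (0.734, adjusted p = 0.046). On the negative side were CG32243 at -1.45 (0.257, adjusted p = 0.0478), the diphthamide synthesis gene Dph1 at -1.41 (0.219, adjusted p = 0.0401) and CG8520 at -1.32 (0.233, adjusted p = 0.0478).

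caup, a neighbour of ara in the Iroquois complex, had 18.2 and 19.1 CPM in Su140, against 8.25 and 3.06 CPM in wm4h at St7-8, and 0.218 and 0.648 CPM in Su140, against 3.38 and 2.85 CPM in wm4h at NC14. Dph1 had 87.5 and 72 CPM in Su140, against 109 and 139 CPM in wm4h at St7-8, and 128 and 128 CPM in Su140, against 68.5 and 81.8 CPM in wm4h at NC14. The count of 34 became 0 without wm4h St7-8 replicate 2, 2 without Su140 St7-8 replicate 2, 440 without Su140 St7-8 replicate 1 and 1957 without wm4h St7-8 replicate 1. With the older-embryo markers as a covariate it was 1.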

How the results depend on the processing

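Counts past the threshold for Su140 against wm4h at St7-8 (143: 47 higher, 96 lower) were 1002 with DESeq2 (703 and 299), 313 with limma voom, 0 fitted to the St7-8 libraries alone and 0 fitted to the compared groups alone (1355 and 1194 at an unadjusted p under 0.05), and 88 with the marker covariate. They ranged from 20 to 416 with 1 library left out. At NC14 (1185) they were 2529 with DESeq2, 1934 with the compared groups alone, 2306 without the second St7-8 libraries and 120 to 714 with 1 library left out. The stage difference (34) gave 151 with DESeq2 size factors, 14 with upper-quartile scaling, 250 without a filter on low counts, 380 with at least 1 CPM in 2 libraries, 1877 with DESeq2, 1 with voom, 16 with the compared groups alone, 1 with the covariate and 0 to 1957 with 1 library left out. Su140 against Su113 (297) gave 463 with at least 1 CPM in 2 libraries, 1399 with DESeq2, 0 and 0 with the St7-8 libraries and the compared groups alone (1616 and 1095 at an unadjusted p under 0.05), 191 without the second St7-8 libraries, 167 with the covariate and 65 to 1439 with 1 library left out. Su140 against Su(var)3-9 (2925) gave 774 with the St7-8 libraries alone, 1234 without the second St7-8 libraries and 862 to 2185 with 1 library left out. The cause of these moves was not tested.

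With the replicate number as a block, counts were 68 at St7-8 (19 higher, 49 lower), 793 at NC14, 27 for the stage difference, 108 against Su113 and 2101 against Su(var)3-9. The labels do not say that a number marks a shared collection. Deviations of same-numbered Su140 and wm4h libraries correlated at -0.50 at St7-8 and 0.08 at NC14. Crossing the Su140 numbers, an alternative chosen after seeing the data, gave 155 at St7-8, 851 at NC14, 126, 190 and 2331.

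Of 61 named genes past the threshold none kept its call under every alternative, since both smaller fits called none; 60 kept it with DESeq2, 57 with voom, 36 with the block and 16 each without Su140 replicate 2 and without wm4h replicate 2. Signs that turned belong to genes not called in Su140 against wm4h. Su(var)3-9 (-0.07) was 0.0671 with DESeq2 size factors, 0.0640 with upper-quartile scaling, 0.0419 without a filter, 0.0734 with at least 1 CPM, 0.0669 with DESeq2, 0.0441 with the St7-8 libraries alone, 0.0209 with the compared groups alone and -0.32 to 0.22 with 1 library left out. Without the second libraries Jasper was 0.0192, JIL-1 0.37 and CG4842 0.0986. With 1 library left out JIL-1 was -0.59 to 0.14, CG4842 -0.77 to 0.0562 and Cyp6a19 -0.90 to 1.05. Depth limits genes near 0.04 CPM.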
